A study of Mus musculus with 17 samples.

Results

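The nucleolar ribosome biogenesis genes described here are 34 mouse genes whose proteins build ribosomes in the nucleolus. They were listed by symbol, and all 34 were found among the 18194 genes that the array annotation names through probe sets with a single gene symbol. Each gene was read from its single-symbol probe set of highest mean. The values come from 17 primary abdominal neuroblastomas of TH-MYCN mice, each hybridized to 1 Affymetrix whole-genome mouse array after two-cycle labelling of 100 ng of total RNA. In these mice human MYCN is expressed under a tyrosine hydroxylase promoter in cells of the neural crest lineage, and by the study's methods the tumors came from hemizygous animals on the 129X1/SvJ background. All tumors form a single group with no treatment and no normal tissue beside it, and the labels give no age, sex or weight for a tumor. The tumors are named by the submitters' numbers, mad548 to mad565, and every level is a log2 expression value, on which a difference of 1 is a doubling of signal.

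Ribosomes are made in the nucleolus, where RNA polymerase I transcribes the long precursor of the ribosomal RNAs (rRNAs). Small nucleolar ribonucleoproteins (snoRNPs) guide the chemical modification and folding of this precursor, and large assemblies of further proteins then cut it and pack it into the small and the large ribosomal subunit. Proteins of the MYC family, to which MYCN belongs, are known for raising the expression of many of these genes, and they bind DNA at the E-box, whose best known form reads CACGTG.

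Because the tumors carry a MYCN transgene, the promoters of the genes were searched for CACGTG. The windows run from 250 bases before to 50 bases after each annotated start and were taken from RefSeq, build GRCm38.p6. Windows were found for 28 of the 34 genes, and 6 of the 28 (21.4%) held the motif, which reads the same on both strands. The share was 10.2% of 14453 genes on the array that have a window, 8.09% of all 27025 genes with a window and 19.6% of 92 other ribosome biogenesis genes. The 6 windows are shown because they are the ones among these genes that hold the motif. Each is printed from its upstream end on the strand of the gene, with CACGTG in capitals.
Mybbp1a (chr11:72441077-72441376, plus strand): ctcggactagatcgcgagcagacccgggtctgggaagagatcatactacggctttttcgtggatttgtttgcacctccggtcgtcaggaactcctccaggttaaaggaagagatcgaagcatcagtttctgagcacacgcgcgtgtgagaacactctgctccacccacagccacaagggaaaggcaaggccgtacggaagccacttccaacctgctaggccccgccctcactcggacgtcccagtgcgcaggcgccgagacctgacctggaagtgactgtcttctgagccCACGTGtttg
Wdr43 (chr17:71615965-71616264, plus strand): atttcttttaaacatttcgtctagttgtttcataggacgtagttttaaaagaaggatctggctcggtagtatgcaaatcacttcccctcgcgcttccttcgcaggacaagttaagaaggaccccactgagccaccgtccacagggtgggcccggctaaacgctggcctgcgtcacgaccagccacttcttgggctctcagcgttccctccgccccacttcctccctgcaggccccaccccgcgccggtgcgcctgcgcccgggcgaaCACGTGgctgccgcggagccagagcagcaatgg
Utp20 (chr10:88826765-88827064, minus strand): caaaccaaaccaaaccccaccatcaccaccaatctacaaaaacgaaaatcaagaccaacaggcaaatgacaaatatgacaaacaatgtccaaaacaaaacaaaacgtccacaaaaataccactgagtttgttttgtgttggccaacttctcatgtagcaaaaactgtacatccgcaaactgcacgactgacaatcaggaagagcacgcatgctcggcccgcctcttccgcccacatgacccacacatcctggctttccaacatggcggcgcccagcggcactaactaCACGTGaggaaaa
Pno1 (chr11:17211540-17211839, minus strand): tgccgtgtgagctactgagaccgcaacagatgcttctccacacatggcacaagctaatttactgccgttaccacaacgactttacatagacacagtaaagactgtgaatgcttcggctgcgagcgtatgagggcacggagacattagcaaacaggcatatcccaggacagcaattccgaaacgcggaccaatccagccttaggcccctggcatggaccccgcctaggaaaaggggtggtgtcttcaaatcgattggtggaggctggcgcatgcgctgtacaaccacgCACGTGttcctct
Pes1 (chr11:3963725-3964024, plus strand): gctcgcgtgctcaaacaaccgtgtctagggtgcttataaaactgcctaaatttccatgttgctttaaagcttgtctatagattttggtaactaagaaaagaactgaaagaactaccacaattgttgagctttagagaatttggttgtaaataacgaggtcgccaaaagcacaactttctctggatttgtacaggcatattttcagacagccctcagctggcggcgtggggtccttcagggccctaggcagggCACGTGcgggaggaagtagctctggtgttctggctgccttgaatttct
Nop2 (chr6:125131633-125131932, plus strand): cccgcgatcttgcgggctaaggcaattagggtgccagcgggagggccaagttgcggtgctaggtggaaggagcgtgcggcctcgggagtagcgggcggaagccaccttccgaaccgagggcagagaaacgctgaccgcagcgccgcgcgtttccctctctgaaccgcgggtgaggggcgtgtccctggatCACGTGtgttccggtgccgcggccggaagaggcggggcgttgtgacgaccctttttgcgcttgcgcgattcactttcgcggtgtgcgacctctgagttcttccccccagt

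Counted from 1 at the upstream end of the window, the motif began at base 191 in Nop2, at base 253 in Pes1, at base 268 in Wdr43, at base 288 in Utp20 and in Pno1, and at base 291 in Mybbp1a. Thus 5 of the 6 matches lay in the last 50 bases, downstream of the annotated start, where 13.0% of the 1761 matches in genes on the array lay. The windows of these genes were also richer in CG, with a median of 22 CG dinucleotides against 16 over the windows of genes on the array. The part of this base composition in the shares was not tested. The related letters CACGCG, searched on both strands, were present in 11 of the 28 genes (39.3%) against 16.2% of genes on the array. Of the other ribosome biogenesis genes 29.3% held them. The ETS-type motif CCGGAAG was present in 7 (25%) against 15.0%, and in 53.3% of the other ribosome biogenesis genes. The GC box GGGCGG was present in 20 (71.4%) against 57.3%, and CCAAT in 8 (28.6%) against 42.0%. The shares of the other ribosome biogenesis genes were 68.5% for GGGCGG and 37.0% for CCAAT. The consensus of NRF1, searched as its most common palindrome, was found in 1 gene, Pno1 (3.57%), against 1.75%. The correlation of the 6 genes with the mean of the other 33 genes over the tumors ran from 0.19 for Nop2 to 0.76 for Pno1.

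The arrays were alike. Deposited values ran from 3.28 to 15.59, array medians over single-symbol probe sets lay between 6.69 and 6.89, and the median correlation between 2 arrays was 0.988. Tumor mad562 stood farthest from the rest, with a median correlation of 0.978 against 0.984 for the next. The difference between the 3′ and 5′ control probe sets of beta-actin, a sign of RNA integrity, ran from 1.4 in mad562 to 1.97 in mad556. The study worked with quartiles of the array, so each probe set was also placed in quartile 1 (dimmest) to 4 (brightest) of its array and the quartile was averaged over tumors. Of 11 sympathoadrenal markers, the lineage of neuroblastoma, 10 were measured and all 10 reached a mean quartile of 3.5. RNA of skeletal muscle was present in 3 tumors, namely mad553, mad550 and mad549, with 12.85, 10.95 and 10.35 for the mean of 10 muscle genes beside a median of 6.24. The mean of 7 liver genes was highest in mad562, at 9.51, and next in mad559, at 7.21, against a median of 5.55.

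Read from their brightest probe sets, the nucleolar genes gave bright and steady signals in all tumors. A mean quartile of 3.5 or above was reached by 31 of the 34 genes, against 33.4% of all genes. In each of the 17 tumors 29 were in the top quartile, which can hold for at most 33.4% of all genes. No gene of the list had a mean quartile of 1.5 or below, where 20.9% of all genes lay. The 3 genes under 3.5 were Polr1a (3.35), Polr1e (3.06) and Rrp12 (3). Since the brightness of a probe set also depends on its probes, these quartiles describe the array and do not order the genes by transcript number. When the quartile was averaged over all probe sets of a gene, 25 of 34 reached 3.5, and the share of all genes under this rule is not given here. The median SD over tumors was 0.17, against 0.19 for all genes and 0.20 for the 9097 genes whose mean was at or above the median, and 25 of the 34 SDs were below the all-gene median. The highest tumor exceeded the lowest by a median of 1.56-fold, from 1.3-fold for Npm1 to 2.23-fold for Polr1b. A range of 1 log2 unit or more was found for 1 gene of the 34, Polr1b, against 26.6% of all genes and 27.2% of those at or above the median level, and for none without mad552. In bulk tumor RNA, fewer cells of a type and less RNA per cell cannot be told apart, which holds for each difference between tumors given here.

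**Figure D1:**
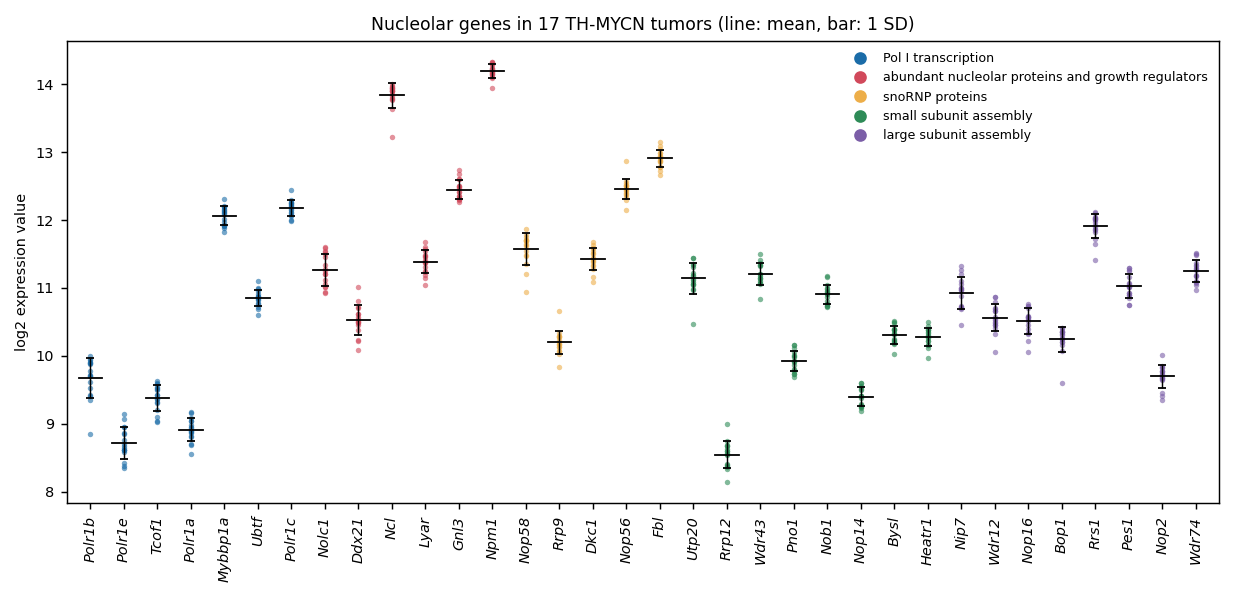
Log2 expression value (vertical axis) of each of the 34 nucleolar genes (horizontal axis, grouped by role and colored) in the 17 tumors, 1 point per tumor, with the mean (line) and 1 SD (bar). In the brightest probe sets shown, all genes except Polr1b span less than 1 log2 unit. The lowest points of Polr1b (8.85), Ncl (13.23) and Utp20 (10.47) lie apart from the other tumors.

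The first group serves transcription by RNA polymerase I. The largest catalytic subunit Polr1a (probe set 1417775_at) ran from 8.55 in mad559 over a median of 8.89 to 9.18 in mad549. Polr1b (1416126_at), the second catalytic subunit, ran from 8.85 in mad552 over a median of 9.71 to 10.002 in mad548. Its spread was the widest of the list (SD 0.30, n = 17), and mad552 lay well below the next tumor, mad565, at 9.35. By contrast Polr1c (1449648_s_at), a subunit shared with RNA polymerase III, was among the steadiest, from 11.99 in mad553 over 12.19 to 12.45 in mad554 (SD 0.11). Polr1e (1435057_x_at), found only in polymerase I, ran from 8.34 in mad550 over 8.68 to 9.15 in mad548 (SD 0.23). Its other probe set was also highest in mad548 but lowest in mad551. Thus the subunits of one enzyme differed in how much they varied, and the tumor at the top or bottom was not the same for all of them. Ubtf (1453097_a_at), the factor that binds rRNA genes and keeps them open, ran from 10.60 in mad561 over 10.86 to 11.11 in mad548 (SD 0.12). Tcof1 (1424643_at) encodes treacle, a scaffold of the rRNA genes that is mutated in human Treacher Collins syndrome. Its values ran from 9.03 in mad548 over 9.42 to 9.63 in mad549. In these probe sets mad548 was thus the top tumor of Ubtf and the bottom tumor of Tcof1. The other Ubtf probe set was highest in mad552, and the other Tcof1 probe sets were lowest in mad563 and mad548. Mybbp1a (1423431_a_at), a Myb-binding protein of the nucleolus, ran from 11.82 in mad551 over 12.10 to 12.31 in mad549.

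The second group holds abundant nucleolar proteins and regulators of growth. Npm1 (1415839_a_at), the histone and ribosome chaperone nucleophosmin, was the steadiest of the 34 genes by the brightest probe set. It ran from 13.95 in mad553 over 14.18 to 14.33 in mad549 (SD 0.10), and its other probe set had an SD of 0.19. Ncl (1415771_at) encodes nucleolin, which binds the rRNA precursor. It ran from 13.23 in mad552 over 13.90 to 14.00 in mad565, with mad552 clearly below the next tumor, mad553, at 13.63. Of the 5 Ncl probe sets 3 were lowest in mad552, while the other two were lowest in mad563 and mad553. Nolc1 (1428869_at), a chaperone of snoRNPs, was one of the more variable genes, from 10.92 in mad563 over 11.25 to 11.60 in mad565 (SD 0.24). Ddx21 (1448270_at), an RNA helicase of the nucleolus, ran from 10.09 in mad550 over 10.52 to 11.01 in mad548 (SD 0.22). Gnl3 (1433656_a_at) encodes nucleostemin, a GTPase known from stem cells and tumors, and ran from 12.26 in mad552 over 12.42 to 12.74 in mad554. Lyar (1417511_at), a zinc finger protein of the nucleolus, ran from 11.05 in mad560 over 11.39 to 11.67 in mad556. Of these 6 genes, Nolc1 and Ddx21 thus varied about as much as Polr1e, while Npm1 spanned 0.38 and Gnl3 0.47 log2 units.

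The snoRNP proteins were the third group. Fbl (1416685_s_at), fibrillarin, the enzyme that methylates rRNA, ran from 12.66 in mad563 over 12.91 to 13.15 in mad549 (SD 0.13). Its other probe set was also highest in mad549 but lowest in mad553. Nop56 (1455035_s_at) and Nop58 are the paired core proteins around fibrillarin, and Nop56 ran from 12.15 in mad550 over 12.45 to 12.88 in mad548. Nop58 (1450986_at) ran more widely, from 10.94 in mad552 over 11.64 to 11.86 in mad548 (SD 0.23), with mad552 below the next tumor, mad553, at 11.21. The lowest tumor of the core protein Nop58 was thus the lowest one of nucleolin and of Polr1b. Dkc1 (1438016_at), dyskerin, makes pseudouridine in rRNA and is mutated in human dyskeratosis congenita. It ran from 11.09 in mad553 over 11.44 to 11.67 in mad549. Rrp9 (1451293_at), a protein of the snoRNP that prepares the precursor for cutting, ran from 9.84 in mad563 over 10.18 to 10.67 in mad549, the top tumor lying apart from the next, mad561, at 10.33.

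Assembly of the small subunit was represented by 8 genes. Utp20 (1452252_at), a large scaffold of the early small subunit particle, ran from 10.47 in mad563 over 11.13 to 11.45 in mad549 (SD 0.23), with the next lowest tumor, mad560, at 10.97. Heatr1 (1424522_at) is a scaffold of the same particle that is also needed for transcription of rRNA. In this probe set it was much steadier, from 9.97 in mad563 over 10.29 to 10.49 in mad554 (SD 0.13). The dimmer Heatr1 probe sets had SDs of 0.37 and 0.23. Wdr43 (1428389_s_at), a partner of Heatr1 in the particle, ran from 10.84 in mad562 over 11.17 to 11.51 in mad554. Tumor mad563 was thus at the bottom for both scaffolds, and second from the bottom for Wdr43 at 11.05. Nop14 (1423991_at), another protein of the early particle, ran from 9.19 in mad550 over 9.41 to 9.60 in mad560. Rrp12 (1434239_at), which in yeast helps to export the subunits, ran from 8.14 in mad563 over 8.57 to 8.99 in mad554. Both were measured by a single probe set. Bysl (1422767_at), bystin, an assembly factor of the small subunit, ran from 10.02 in mad551 over 10.32 to 10.52 in mad556. Pno1 (1450735_at), the partner of the endonuclease Nob1, ran from 9.69 in mad563 over 9.93 to 10.16 in mad549. Nob1 (1454957_at), which makes the final cut of the small subunit rRNA, ran from 10.72 in mad563 over 10.91 to 11.18 in mad558. Of the 8 genes 5 were therefore lowest in mad563.

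For the large subunit, Pes1, Bop1 and Wdr12 form a complex that is needed to process its rRNA. Pes1 (1416172_at) ran from 10.75 in mad552 over 11.02 to 11.30 in mad559. Bop1 (1423264_at) ran from 9.61 in mad563 over 10.27 to 10.41 in mad564, and mad563 lay well below the next tumor, mad558, at 10.08. Wdr12 (1448646_at) ran from 10.05 in mad553 over 10.55 to 10.87 in mad549. In these probe sets the 3 partners had 3 different lowest tumors, though Pes1 was almost as low in mad550 (10.75) as in mad552. The second probe sets had other lowest tumors, namely mad565 for Pes1, mad564 for Bop1 and mad552 for Wdr12. Rrs1 (1456865_x_at), which helps to add the smallest rRNA to the growing large subunit, ran from 11.41 in mad563 over 11.98 to 12.12 in mad555. Its other probe set was also lowest in mad563, at 10.10, but highest in mad549. Nip7 (1448480_at), a ribosome assembly factor first known from yeast, ran from 10.46 in mad563 over 10.97 to 11.32 in mad548 (SD 0.23). Nop2 (1424019_at), which methylates rRNA of the large subunit, ran from 9.35 in mad559 over 9.71 to 10.01 in mad554. In mad559, where Nop2 and Polr1a were at their lowest, 25 of the 34 genes were above their own median. Nop16 (1424620_at), a large subunit factor known from yeast, ran from 10.06 in mad552 over 10.56 to 10.76 in mad549. Wdr74 (1416890_at), whose yeast counterpart acts on the early large subunit, ran from 10.97 in mad553 over 11.27 to 11.52 in mad556.

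The mean of the 34 genes differed little between tumors. It was 10.94 ± 0.10 (SD, n = 17), lowest in mad563 (10.76) and mad553 (10.81) and highest in mad549 (11.12), mad554 (11.08) and mad548 (11.07). The span of 0.36 log2 units corresponds to 1.28-fold. Tumor mad549 was the highest of the 17 for 11 of the genes, against 7.02% of all genes, and 31 of the 34 were above their own median there. Tumor mad563 was the lowest for 11 of the genes, against 7.79% of all genes. Since mad549 and mad563 were singled out by the mean of these same genes, high counts there are partly built in. In mad553 only 2 of the genes were above their own median. This tumor was the lowest for 5 of the genes and for 12.8% of all genes. The shares of all genes above their own median in mad549, mad553 and mad559 are not given here. The order depended partly on the level of the whole array. After the median of each array was subtracted, the highest tumors were mad556 (4.37) and mad549 (4.36), the lowest remained mad563 (4.03), and mad554 went from rank 2 to rank 10. Tumors at either end held muscle RNA (mad549 high, mad550 and mad553 low), and the SD of the mean was 0.09 without these 3. The highest liver mean (9.51), the highest macrophage mean (10.93) and the lowest beta-actin difference went with mad562. Its nucleolar mean was 10.88, in the lower part of the range, and without this tumor the SD was 0.10.

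**Figure D2:**
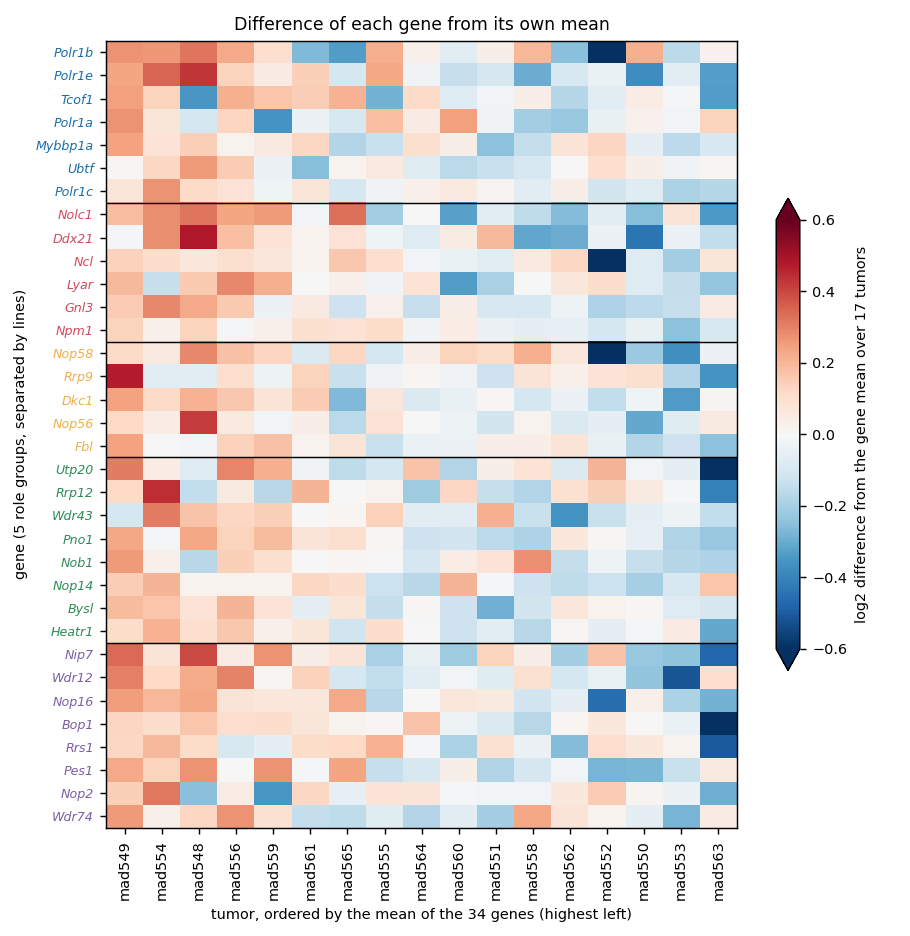
Log2 difference of each nucleolar gene (rows, 5 role groups separated by lines) from its own mean over 17 tumors, for each tumor (columns, highest mean of the 34 genes at left). Red is above and blue below the gene's mean. Tumor mad549 is red in most rows, and mad563 holds dark blue cells for Utp20, Bop1 and Rrs1 beside pale or red ones.

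Split by role, the groups moved in a similar narrow band. The SD of the group mean was 0.10 for polymerase I transcription and for the small subunit, and 0.12 for the snoRNP proteins, the large subunit and the abundant proteins. The mean of the large subunit group ran from 10.52 in mad563 to 10.99 in mad549. The small subunit group ran from 9.98 in mad563 to 10.39 in mad554. For the snoRNP proteins the lowest tumor was mad553 (11.50) and the highest mad549 (11.95). The polymerase I group ran from 10.13 in mad552 to 10.45 in mad549, and the abundant proteins from 12.10 in mad550 to 12.51 in mad548. Thus no tumor was at the bottom for all 5 roles, and mad549 was at the top for 3 of them. The plot of role means also shows 23 measured proliferation genes, whose mean was lowest in mad553 (11.47), with mad554 next (11.64) although mad554 ranked second for the nucleolar genes. The proliferation mean was highest in mad558 and mad549 (11.92 in each), and mad549 was also the highest tumor for the nucleolar genes.

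**Figure D3:**
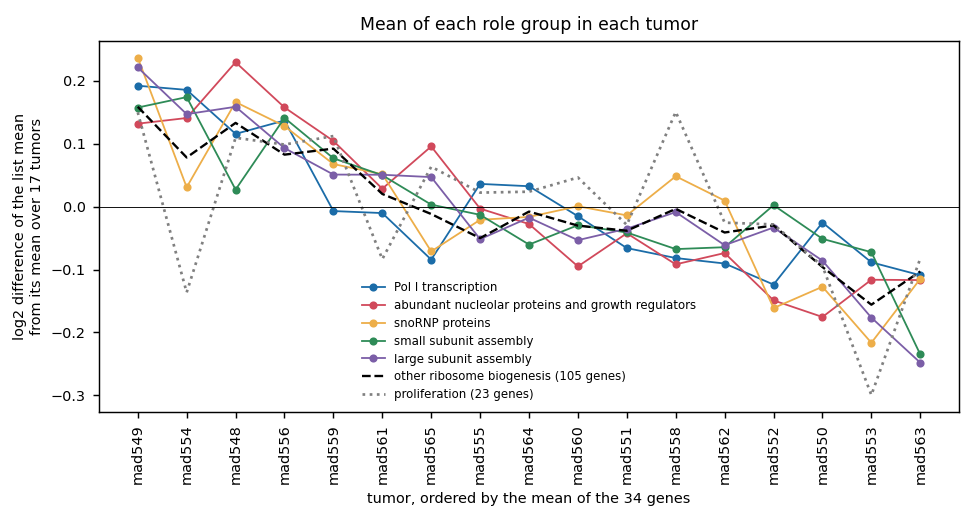
Mean log2 value of each role group in each tumor, as the difference from its mean over 17 tumors (vertical axis), with tumors ordered by the mean of the 34 genes (horizontal axis). The lines of the 5 groups, whose genes set this order, and of 105 other ribosome biogenesis genes fall from left to right. That of 23 proliferation genes dips at mad554 and mad553 and is highest at mad558 and mad549.

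Over the 17 tumors the genes rose and fell together more than pairs of genes in general, which is given as a description. The median Pearson r over all pairs of the list was 0.35, 501 pairs (89.3%) were above 0 and 148 (26.4%) were at or above 0.5. Over all pairs of the 18194 genes the median was 0.0703, 59.2% were above 0 and 6.22% at or above 0.5. Pairs of genes at or above the median level gave 0.0698. All values share the same 17 arrays. Leaving out mad549 and mad563, the tumors with the highest and lowest mean, lowered the median of the nucleolar genes to 0.26, against 0.0722 for all genes, and leaving out the 3 tumors with muscle RNA lowered it to 0.27. After removal of the first principal component of all genes it was 0.36.

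**Figure D4:**
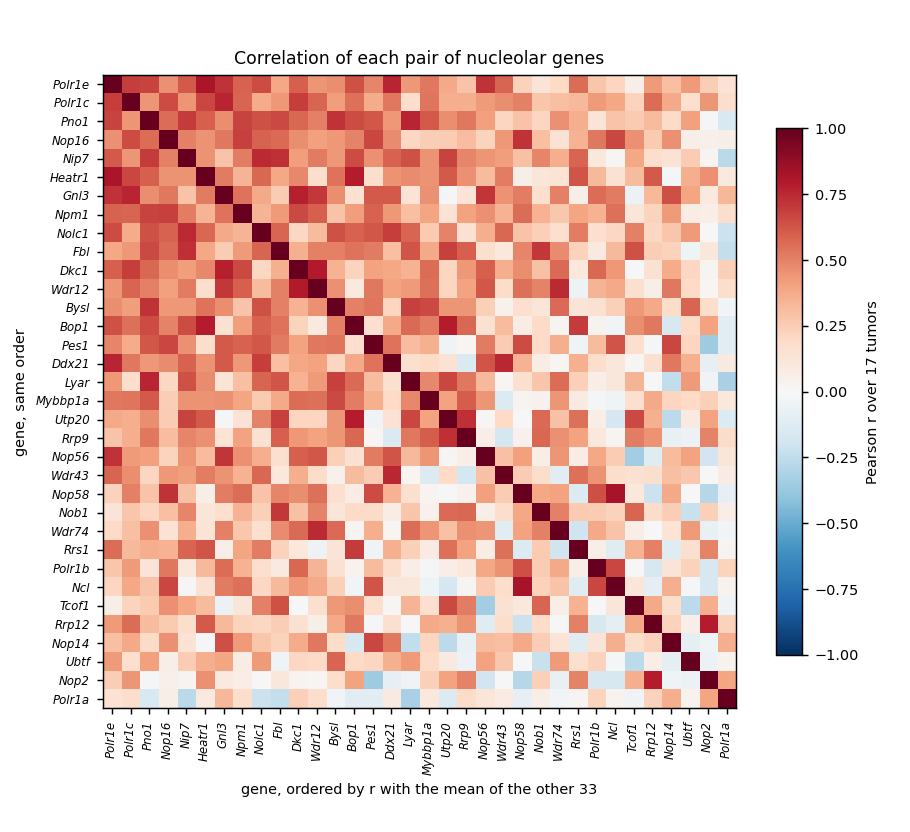
Pearson r over 17 tumors for each pair of the 34 nucleolar genes, ordered on both axes by the correlation with the mean of the other 33 genes. Red fills most of the upper left, from Polr1e (0.79) onward, and the rows of Ubtf, Nop2 and Polr1a at the end are pale or blue in places.

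The genes differed in how far they followed the rest. The correlation with the mean of the other 33 was highest for Polr1e (r = 0.79), Polr1c (0.78), Pno1 (0.76), Nop16 (0.73) and Nip7 (0.72), which serve transcription, the small subunit and the large subunit. It was lowest for Polr1a (0.07), Nop2 (0.19) and Ubtf (0.31). Polr1a, the largest subunit of the polymerase, thus followed the list least while its partner subunits Polr1e and Polr1c followed it most. The Polr1a probe sets did not run alike, as the brightest had an r of 0.062 with the next and of 0.52 with the third. Nop2 stayed apart from most genes but ran with Rrp12 (r = 0.79, and 0.71 without mad554, the top tumor of both). The closest pair of the list was Ncl and Nop58 (r = 0.83), and it was 0.61 without mad552, the lowest tumor of both. Tumor mad552 also set the relation of Ncl to Polr1b, which went from 0.67 to 0.14 without it, and that of Nop58 to Polr1b, from 0.65 to 0.28. In the same way Utp20 and Bop1 had an r of 0.78 that was 0.39 without mad563. Other close pairs depended less on a single tumor. For Polr1e and Heatr1 r was 0.81, and 0.80 without mad563. It was 0.78 and 0.65 for Heatr1 and Bop1 with and without mad563, and 0.79 and 0.68 for Dkc1 and Wdr12 with and without mad553. The most negative pair was Pes1 and Nop2, at -0.36.

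A second probe set was available for 22 of the 34 genes. Its correlation with the brightest one over tumors had a median of 0.48, from -0.19 for Pes1 to 0.92 for Ncl, and was positive for 21 of the 22. It was above 0.5 for 11 of the 22. Thus the profile over tumors depends on the probe set for part of the genes. Among them are Pes1, Polr1a, Wdr12 (0.14), Bysl (0.18), Nip7 (0.20) and Bop1 (0.23). Correlations and slopes of these genes are those of the brightest probe set unless stated otherwise.

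For 12 pairs of genes whose proteins work in a complex or a step together, the correlation was tested (two-sided permutation test, 100000 resamples, Benjamini-Hochberg adjustment over the 12 pairs). None passed an adjusted p of 0.05 (adjusted p 0.126 to 0.678), while 4 had an unadjusted p under 0.05. The scaffolds Heatr1 and Utp20 had r = 0.61 (permutation p = 0.0105, adjusted p = 0.126) and rho = 0.41 (permutation p = 0.105), and r was 0.33 without mad554 and mad563. When the arrays were centred on their medians, this pair passed (r = 0.72, permutation test, adjusted p = 0.0216). Pes1 and Wdr12 had r = 0.53 (permutation p = 0.0289, adjusted p = 0.129), with rho = 0.58 (permutation p = 0.0159), and r was 0.51 without mad548 and mad559. Ncl and Npm1 had r = 0.55 (permutation p = 0.0322, adjusted p = 0.129) and rho = 0.51 (permutation p = 0.0376), and r was 0.34 without mad552 and mad553. For Fbl and Nop58 r was 0.49 (permutation p = 0.0496, adjusted p = 0.149) and rho was 0.63 (permutation p = 0.00736). The core pair Nop56 and Nop58 had r = 0.41 (permutation p = 0.113, adjusted p = 0.272), which was 0.14 without mad548 and mad550, and Fbl and Nop56 had r = 0.16 (permutation p = 0.542, adjusted p = 0.606). Of the remaining pairs, Bop1 and Wdr12 had r = 0.098 (permutation p = 0.678, adjusted p = 0.678), but 0.65 without mad558 and mad563, the 2 lowest tumors of Bop1. The single negative pair was Ubtf and Tcof1 (r = -0.26, permutation p = 0.316, adjusted p = 0.576), with r = 0.13 without mad548 and mad561. The other four pairs, Pes1 with Bop1, Polr1a with Polr1b, Dkc1 with Nolc1 and Nob1 with Pno1, had r between 0.17 and 0.22 (permutation p 0.389 to 0.555, adjusted p 0.576 to 0.606), but these values moved with single tumors and with the probe sets. Pes1 with Bop1 had r = 0.48 without mad563 and rho = 0.46, and Nob1 with Pno1 ran from 0.038 without mad549 to 0.46 without mad558. Dkc1 with Nolc1 had 0.43 without mad565, 0.65 without mad553 and mad565, and 0.61 with the mean of all probe sets of a gene. Polr1a with Polr1b had 0.14 without mad549 and 0.53 with the mean of all probe sets. None of these passed the adjusted threshold where it was tested, which leaves out the value without both mad553 and mad565. The median r of the 12 pairs was 0.22, against 0.35 for the rest of the pairs in the list. Leaving out 1 tumor at a time moved the median of the partners from 0.14 without mad549 to 0.355 without mad558, and it was 0.35 without mad563, where the rest had 0.33. With the mean of all probe sets it was 0.34 against 0.36. The median of the partners was below that of the rest in 16 of the 17 runs that left out 1 tumor. The size of the difference changed with the tumor left out and with the probe sets.

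**Figure D5:**
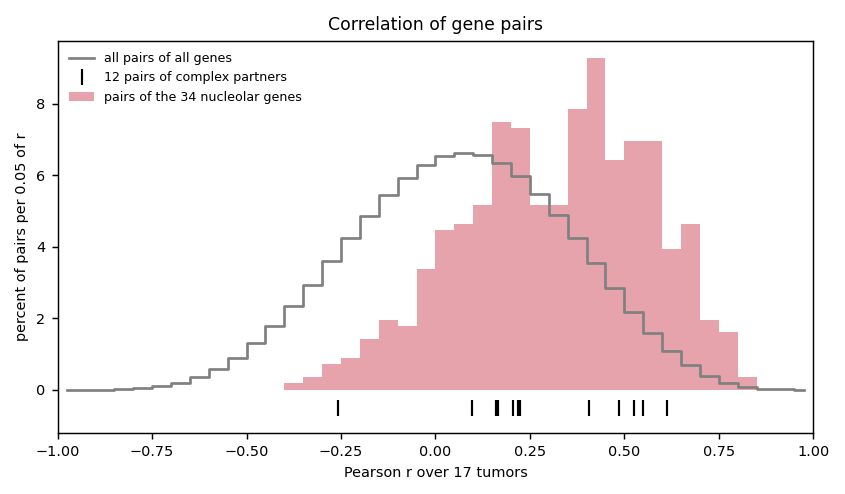
Percent of gene pairs (vertical axis) per 0.05 of Pearson r over 17 tumors (horizontal axis), for the pairs of nucleolar genes (bars) and all pairs of 18194 genes (line), with the 12 partner pairs as ticks. The bars center at a median of 0.35 and the line at 0.0703, and the ticks lie between -0.26 and 0.61.

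Each gene was then related to the levels of mouse Mycn, Myc and Mki67 over the tumors. Mycn was measured by its mouse probe sets, and whether these also detect the human transgene was not tested. Mycn ran from 8.59 in mad558 over a median of 9.19 to 9.68 in mad548. None of the 34 genes was related to Mycn after adjustment over all genes (limma, adjusted p under 0.05), where 0.0110% of all genes were called. At an unadjusted p under 0.05, 4 genes had a positive slope, Polr1e, Ddx21, Wdr43 and Nip7, where 8.05% of all genes did, and none had a negative one, as 2.18% of all genes did. A positive slope of any size was found for 29 of the 34 genes, against 61.5% of all genes. The strongest relation was that of the helicase Ddx21, with a slope of 0.60 ± 0.14 (SE, n = 17) log2 units per log2 unit of Mycn and a limma adjusted p of 0.256. Its r was 0.74 (permutation p = 8e-04), rho was 0.61 (permutation p = 0.00969), and r was 0.64 without mad558 and mad562, the 2 tumors of lowest Mycn. For Polr1e the slope was 0.55 ± 0.16 (limma adjusted p = 0.286), with r = 0.66 (permutation p = 0.00354) and rho = 0.64 (permutation p = 0.00615). Both genes were highest in mad548, the tumor of highest Mycn.

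Myc had a mean quartile of 2 and ran from 5.31 in mad554 to 6.21 in mad565. None of the 34 genes was related to Myc after adjustment (limma, 0.0385% of all genes), and none had an unadjusted p under 0.05 in either direction, where 4.90% of all genes had one with a positive and 5.88% with a negative slope.

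Mki67, a marker of cycling cells, was bright and nearly level, from 13.58 in mad553 over 13.71 to 13.92 in mad558. None of the 34 genes was related to it after adjustment (limma, 0.0110% of all genes). At an unadjusted p under 0.05, 7 genes had a positive slope, Lyar, Fbl, Utp20, Nob1, Wdr12, Nip7 and Wdr74, where 5.90% of all genes did, and none had a negative one, as 4.81% of all genes did. Wdr74 followed Mki67 most closely, with r = 0.80 (permutation p = 9e-05), rho = 0.77 (permutation p = 0.00045) and r = 0.70 without mad556 and mad558. Its slope was 1.36 ± 0.31 (SE, limma adjusted p = 0.125), and after centring of the arrays on their medians it was 1.05 ± 0.24 and passed (limma adjusted p = 0.0397).

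The 34 genes were also related to the beta-actin difference. None of the 34 genes was related to it after adjustment (limma, 0.00% of all genes), but 7 had a positive slope at an unadjusted p under 0.05, where 2.78% of all genes did, and none a negative one, against 5.14%. These were Nolc1, Ddx21, Utp20, Heatr1, Wdr43, Rrs1 and Nip7, so that Ddx21, Wdr43 and Nip7 were also among the genes with an unadjusted relation to Mycn, and Utp20 and Nip7 among those with one to Mki67. The strongest was Wdr43 by correlation (r = 0.73, permutation p = 0.00059, rho = 0.70, permutation p = 0.00233) and r was 0.63 without mad560 and mad562. The part of RNA integrity in the values of these genes was not tested further. The mean of the 34 genes had an r of 0.39 with the beta-actin difference and of 0.32 with the array median over the 17 tumors.

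Other genes of ribosome biogenesis had a similar profile over the tumors. Of 111 listed, 105 were measured, 89 reached a mean quartile of 3.5, and the SD of their mean over tumors was 0.09. Their mean was lowest in mad553 (10.18) and mad563 (10.23) and highest in mad549 (10.49) and mad548 (10.47), and it had an r of 0.94 with the mean of the 34 nucleolar genes over the 17 tumors. Taken singly, 104 of the 105 were positively correlated with the mean of the nucleolar genes, against 67.1% of the 18160 genes outside the list, and 50 (47.6%) had an r of at least 0.5 against 7.83%. The widest spread was that of Taf1d, a subunit of the factor that loads polymerase I (SD 0.28, 10.58 in mad565 to 11.53 in mad548). Next were Naf1, an assembly factor of dyskerin snoRNPs (SD 0.27, 9.84 to 11.13), and Ltv1, a factor of the small subunit (SD 0.27, 9.46 to 10.51), both lowest in mad563 like Utp20 and Nob1. The steadiest were Bms1, a GTPase of the early small subunit particle (SD 0.10, 12.86 to 13.25), Senp3, a SUMO protease of the nucleolus (SD 0.10, 10.90 to 11.22), and Polr1d, a subunit shared by polymerases I and III (SD 0.11, 12.51 to 12.95). Polr1d thus varied as little as its partner Polr1c.

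Cytosolic ribosomal proteins, of which 44 of 79 were measured through single-symbol probe sets, had a mean with an SD of 0.07 and an r of 0.49 with the nucleolar mean, and that of 23 of 24 proliferation genes had an r of 0.51. The means of cell type markers had an r with the nucleolar mean of -0.14 for sympathoadrenal, -0.14 for skeletal muscle, -0.079 for liver, -0.09 for macrophage, 0.22 for fibroblast, -0.49 for endothelial, 0.37 for fat and 0.40 for adrenal cortex genes, each over the same 17 tumors. For T and NK cells, B cells, Schwann cells and erythroid cells r was 0.006, -0.17, 0.20 and 0.011. The mean of 5 measured fat genes was highest in mad548 (9.05) and mad556 (8.94), against a median of 7.13, and these tumors ranked 3 and 4 for the nucleolar mean. The mean of 5 adrenal cortex genes was highest in mad554 (5.89) and mad548 (5.78), against a median of 5.51, and the part of these cell types in the nucleolar values was not tested.

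Outside the list, the genes whose values ran closest to the mean of the 34 genes over the 17 tumors were found by Pearson r over all genes. They were led by Ptcd3 (0.90), which serves translation in mitochondria, and Wdr61 (0.90), a subunit of the PAF complex of transcription elongation. Next were Ufsp2 (0.89), a protease of the ubiquitin-like protein UFM1, Nfkbil1 (0.89), and Mettl1 (0.89), a methyltransferase of transfer RNA. Then came Pus7 (0.87), a pseudouridine synthase, and Gemin5 (0.86), which binds the RNA of spliceosomal particles. The last were Timm8a1 (0.86), a chaperone of mitochondrial import, Rpf2 (0.86), a large subunit assembly factor that works with Rrs1, and Peg12 (0.83). Of these 10, Rpf2 belongs to the list of other ribosome biogenesis genes. Ptcd3 ran from 10.56 over a median of 10.92 to 11.23, and Pus7 from 10.49 over 10.76 to 11.13, spans of a size seen among the nucleolar genes.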

How the data were processed

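RNA of 17 tumors was measured on 1 array each, and 1 further tumor that the paper counts was not analysed here. The deposited values are log2 expression values per probe set. The labels name RMA and Partek 6.4 for them, and the paper names RMA in its results, while its methods name MAS5 with arrays scaled to a common trimmed mean. Unlogged and trimmed by 2% at each end, the array means ran from 377.3 to 428.3 and were thus not scaled to 1 value. The values were taken as RMA by the labels, the summary method was not tested further, and no other normalization was applied. How precise a value is depends on their number of 17, and no tumor was measured again.

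Of 45101 probe sets, 64 were controls, 34958 had 1 gene symbol in the platform annotation, 932 had several and 9147 had none. A gene was read from its single-symbol probe set of highest mean, with no filter on low values. The nucleolar genes and the gene lists were chosen with earlier results of these data known. Of 330 list entries, 280 were measured. Every nucleolar gene is named. Beside these, the text names the covariates, the 10 genes most correlated with the nucleolar mean and, of other ribosome biogenesis genes, the 3 with the largest and the 3 with the smallest SD.

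Slopes on Mycn, Myc, Mki67 and the beta-actin difference were fitted over all genes with limma 3.58.1 in R 4.3.3 with Benjamini-Hochberg adjustment over all genes (threshold 0.05), and this was tested on simulated data. Correlations of single genes were tested with 100000 permutations (seed 1). Python 3.11.15, NumPy 2.4.6, SciPy 1.17.1 and pandas 2.3.3 were used. Promoter windows were matched by gene ID and symbol. Alternatives covered the choice of probe sets, centring of arrays, the first principal component, Spearman's rho, quartile limits, a filter on dim genes and the leaving out of tumors.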

Additional observations from a re-analysis of the deposited data

How the results depend on the processing

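No paired analysis was possible because the tumors form a single group of 1 array apiece. When arrays were centred on their median, 1 of the 12 partner pairs passed the threshold in place of 0 (Heatr1 and Utp20, r = 0.72, permutation test, adjusted p = 0.0216), and 1 nucleolar gene, Wdr74, was related to Mki67 in place of 0. Without mad552 the number of nucleolar genes with a range of at least 1 log2 unit was 0 in place of 1. The correlation of Fbl and Nop56 changed sign to -0.24 without mad549, mad550 and mad553 and to -0.041 without mad550, and that of Nob1 and Pno1 to -0.10 without mad549, mad550 and mad553. The cause was not tested. Leaving out 1 tumor at a time, the SD of the nucleolar mean was 0.0923 to 0.105, the median correlation among the 34 genes 0.291 to 0.366, genes with a mean quartile of 3.5 or above 31 in each case and genes with a range of at least 1 log2 unit 0 to 1. No partner pair and no relation to Mycn, Myc, Mki67 or the beta-actin difference passed when 1 tumor was left out. Leaving out 1 tumor moved the r of Heatr1 and Utp20 between 0.293 and 0.685 that of Bop1 and Wdr12 between 0.0321 and 0.444 and that of Fbl and Nop56 between -0.041 and 0.268. The removal of mad549 and mad563 together and the medians of the partner pairs in each alternative were chosen after seeing the data. Centring cannot change the quartiles, so it gave no value there. Probe sets that saturate or sit near the lowest level show differences between tumors less well.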

Other observations

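The genes of some chromosomes shifted together in single tumors. In mad563, the tumor with the lowest nucleolar mean, the 446 genes of chromosome 3 with a mean at or above the median of all genes had a median deviation of 0.36 log2 units from their own means over tumors, relative to the tumor's median over all such genes, and 82.7% of them were above 0. None of the 34 nucleolar genes lies on chromosome 3. In mad550 the 452 such genes of chromosome 10 had a median deviation of -0.11, and 27.7% were above 0. Of the 2 nucleolar genes on this chromosome, Ddx21 was at its lowest in mad550 (10.09), while Utp20 was at its median there (11.13). Next in size was a median deviation of -0.074 for chromosome X in mad553, where 35.9% of its genes were above 0 and the X-linked Dkc1 was at its lowest (11.09), and one of -0.073 in mad562. Chromosome 17, which holds Polr1c, Bysl and Wdr43, had 0.069 in mad562, with 64.4% above 0, while Wdr43 was at its lowest there (10.84). Chromosome 1, which holds Ncl, Nop58, Wdr12 and Rrs1, had -0.06 in mad563. Genomic DNA was not analysed here, and the part of these shifts in the nucleolar values was not tested.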
